A study of Mus musculus with 10 samples.

Results

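The E2F transcription factors and the pocket proteins that hold them were followed in jejunal crypts of mice that had lost Arid3a. The 10 genes were listed by name: the 8 E2F factors E2f1 to E2f8 and the pocket proteins Rb1 and Rbl1. All 10 passed the filter on low counts, among 14719 genes tested of 54838 listed. The remaining pocket protein gene, Rbl2, was not listed as a member and is given beside them. Of the 10 genes, E2f1, E2f4, E2f6 and E2f7 were lower in the mutant crypts, Rb1 was higher, and E2f2, E2f3, E2f5, E2f8 and Rbl1 did not pass the test. Only E2f1, E2f7 and Rb1 kept their call when each animal was left out in turn.

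E2F factors bind promoters of genes for DNA replication and cell cycle entry. E2f1, E2f2 and E2f3 are classed as activators, E2f4, E2f5 and E2f6 as repressors, and E2f7 and E2f8 as atypical repressors that bind DNA without a DP partner. The retinoblastoma protein RB1 and its relatives RBL1 (p107) and RBL2 (p130) bind E2Fs and silence their targets until cyclin-dependent kinases phosphorylate them. In the intestine this circuit runs in the dividing stem and transit-amplifying cells of the crypt and is turned down as cells leave it. ARID3A was also described under the name E2FBP1, as a protein that binds E2F1.

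RNA was sequenced from crypts of 5 WT and 5 Arid3a conditional knockout (cKO) mice, 1 library per animal. Mice of both genotypes received tamoxifen on 3 consecutive days and were culled 1 month after the first injection. In the cKO, Villin-driven Cre-ERT2, which tamoxifen activates, deletes floxed Arid3a in epithelial cells only. Strain, age and the alleles carried by the WT mice are not given in the sources used here. The animal codes in the labels form 2 series, 1 per genotype, so colony or litter and genotype cannot be told apart. Villi had been scraped away first, and the libraries hold polyadenylated RNA. Library totals were 27050455 to 28152743 expected counts for WT animals, all below the cKO totals of 28314069 to 31053622. Levels are given as CPM, counts scaled to a common library size by the trimmed mean of M-values (TMM), and, where genes are compared with each other, as TPM, which also divide by transcript length. A call means an adjusted p under 0.05 in edgeR's quasi-likelihood test, with p-values adjusted by the Benjamini-Hochberg method over all genes tested. Log2 fold changes are cKO minus WT, with their standard error (SE).

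The targeted gene was low in both genotypes. Arid3a stood at 1.91, 2.06, 2.75, 2.68 and 2.69 CPM in WT animals 1 to 5 and at 0.303, 0.516, 0.489, 0.883 and 1.17 CPM in cKO animals 1 to 5. Every cKO library lay below every WT library, with a log2 fold change of -1.84 ± 0.32 (SE) and an adjusted p of 0.00204 in edgeR's quasi-likelihood test. The counts cover the whole gene and not the floxed part alone.

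The epithelial label held in all libraries, but their cell makeup was not equal. All 8 villus enterocyte markers (Alpi, Apoa1, Apoa4, Fabp1, Fabp2, Sis, Lct and Ada) were higher in cKO, and their summed TPM ran from 1307 to 6701 in WT and from 6873 to 13809 in cKO. Of 7 crypt markers 5 were lower (Olfm4, Ascl2, Smoc2, Lyz1 and Mmp7), with sums of 7904 to 15027 TPM in WT and 5694 to 7330 TPM in cKO. Lgr5 (-0.17) and Mki67 (-0.19) were not called. Of 5 epithelial markers 2 (Vil1 and Krt20) and of 6 secretory markers 3 were higher. Of 9 immune markers 1 was lower, Jchain, and of 7 stromal markers 2 were lower, Acta2 and Pecam1. The summed immune markers ranged from 70.7 to 133 TPM in WT and from 28.4 to 131 TPM in cKO, the stromal ones from 5.28 to 20.5 and from 2.52 to 34.2 TPM, and none of the markers was at 0 throughout. In bulk crypts, fewer cells of a type and less RNA per cell cannot be told apart, and the part of these markers in the results was not tested.

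Promoter sequences show which of these genes carry some exact forms of the letters that E2F factors favour. In the RefSeq promoters (GRCm38.p6, 250 bases before to 50 after each start) the words TTTGGCGC, TTTCGCGC, TTTGGCGG and TTTCCCGC were searched on both strands. One of them stood in 2.37% of all 32851 promoters and in 4 of the 9 promoters given for 7 members (44.4%). The stretches that lie before the start of a member gene are shown first, because they place members among possible E2F targets. Then come partner and target genes that fell in cKO crypts, 5′ to 3′ on the strand of each gene, with the matched letters in capitals. A match describes the sequence and does not show that a factor binds there.
E2f3 (chr13:29986064-29986089, minus strand): tggtttgaaaagccgGCGGGAAAtct
E2f7 (chr10:110745226-110745263, plus strand): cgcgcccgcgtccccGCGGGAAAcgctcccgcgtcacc
Rbl1 (chr2:157204535-157204567, minus strand): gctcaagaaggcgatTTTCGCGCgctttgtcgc
Tfdp1 (chr8:13338693-13338730, plus strand): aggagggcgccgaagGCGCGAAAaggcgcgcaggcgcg
Cdc6 (chr11:98907998-98908035, plus strand): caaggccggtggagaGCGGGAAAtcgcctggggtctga
Mcm5 (chr8:75109341-75109382, plus strand): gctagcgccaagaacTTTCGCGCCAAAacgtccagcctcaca
Cdk2 (chr10:128705169-128705206, minus strand): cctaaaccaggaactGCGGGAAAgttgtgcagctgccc

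In Mcm5 a match on each strand overlaps, so its capitals run on for longer. The matches in E2f2 lie after its start, 25 and 40 bases in, and no match was found in the windows of E2f1, E2f6 and E2f8. Other forms of the E2F letters were not searched, so a window without a match may still hold one. E2f4, E2f5 and Rb1 were not among the promoters searched. Of the members shown above, E2f7 was called lower, while E2f3 and Rbl1 were not called.

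E2f1, the activator that drives entry into S phase and the partner that gave E2FBP1 its name, was clearly lower in cKO crypts. Its level was 19.1, 20.5, 21.2, 23.4 and 25.7 CPM in WT animals 1 to 5 and 14.5, 15.7, 15.2, 15.5 and 12.2 CPM in cKO animals 1 to 5. The highest cKO library stayed below the lowest WT library. The mean went from 22.0 ± 2.58 (SD, n = 5) to 14.6 ± 1.43 CPM, a change of -33.6%. The log2 fold change was -0.59 ± 0.10 (SE), with an adjusted p of 0.00188 in edgeR's quasi-likelihood test. It was called in each of the 10 fits that left out 1 animal (adjusted p from 0.0017 to 0.00635) and in the 12 other alternatives. Among all genes tested 28.3% were called, 12.7% as lower and 15.6% as higher, so 5 called members of 10 stand beside a high background.

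E2f2 and E2f3, the other activators, moved less. E2f2 was at 49.7, 50.8, 49.8, 48.7 and 55.6 CPM in WT and at 48.0, 42.5, 46.0, 35.9 and 47.6 CPM in cKO. These libraries did not overlap, yet the nearest animals were less than 1 CPM apart, and the log2 fold change of -0.21 ± 0.084 (SE) had an adjusted p of 0.0769 in edgeR's quasi-likelihood test. E2f2 was called with library sizes alone (-0.34, adjusted p = 0.00551) and in limma on log2(TPM + 0.1) (-0.31, adjusted p = 0.0201). E2f3 was at 32.5, 25.5, 28.9, 41.5 and 37.2 CPM in WT and at 26.7, 27.8, 27.04, 30.001 and 32.6 CPM in cKO. WT animal 2 had less E2f3 than every cKO animal. The E2f3 difference, -0.20 ± 0.12 (SE), was not called (adjusted p = 0.235, edgeR's quasi-likelihood test) in any alternative. Animals did not overlap between genotypes for 3 of the 10 members, E2f1, E2f2 and Rb1, where 19.6% of all genes tested did not overlap, 7.62% with cKO below and 12% with cKO above.

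**Figure D1:**
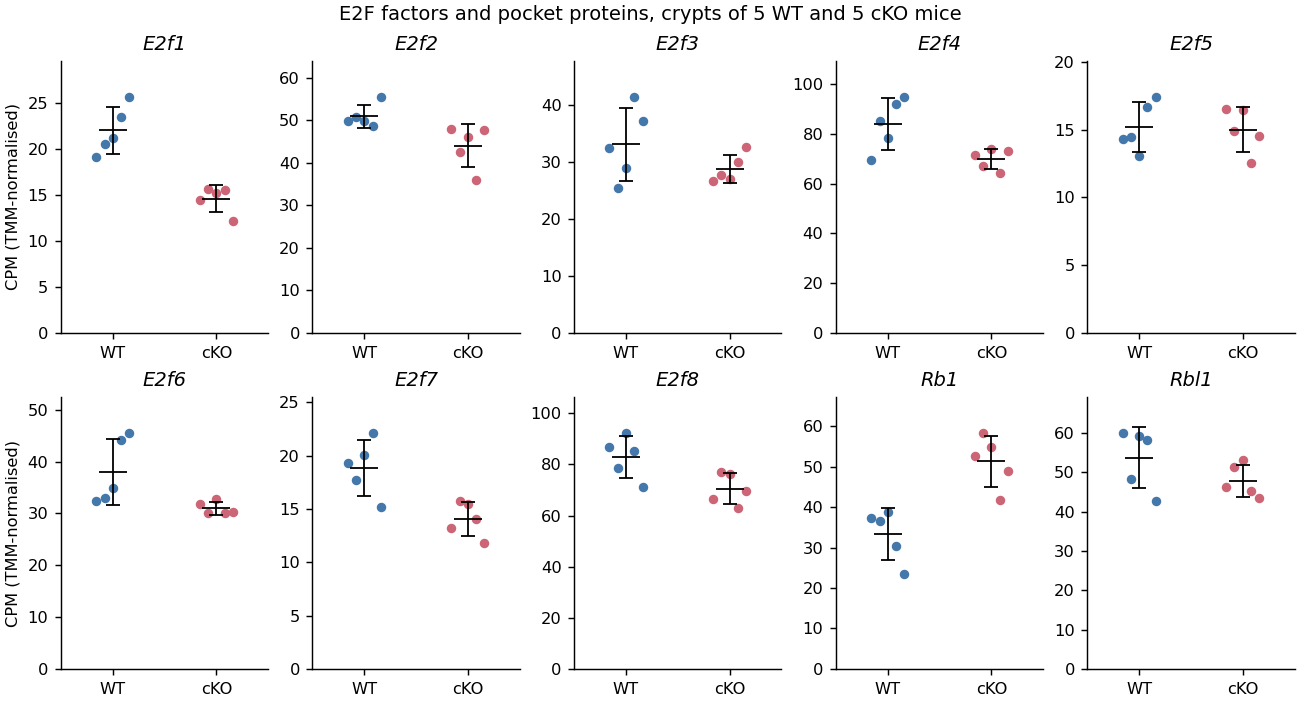
Level of each of the 10 genes in CPM (TMM-normalised, axes from 0) in 5 WT and 5 cKO animals; each point is 1 animal, the long mark is the mean and the bars are the SD. E2f1 in cKO (12.2 to 15.7 CPM) sits below WT (19.1 to 25.7 CPM), and Rb1 in cKO (41.9 to 58.4 CPM) sits above WT (23.5 to 38.7 CPM).

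E2f4, which with RBL1 and RBL2 holds target genes silent in resting cells, was the most abundant member and was slightly lower in cKO crypts. It was at 69.6, 85.3, 78.5, 92.0 and 95.1 CPM in WT and at 71.6, 67.3, 73.9, 64.3 and 73.2 CPM in cKO. Only WT animal 1 fell within the cKO range. The log2 fold change was -0.26 ± 0.086 (SE, adjusted p = 0.0368, edgeR's quasi-likelihood test). The call held in 2 of the 10 fits without 1 animal, those without WT animal 1 or WT animal 3. In the other 8 fits the adjusted p rose to between 0.0511 (without cKO animal 3) and 0.0902 (without WT animal 4).

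E2f6, a repressor that lacks the pocket-binding region and works with a Polycomb complex, was close to the threshold. Its WT animals split, with 32.3, 33.1 and 34.8 CPM in animals 1 to 3 and 44.1 and 45.6 CPM in animals 4 and 5. In cKO animals it was even, at 31.8, 30.1, 32.7, 30.03 and 30.3 CPM, so WT animal 1 overlapped with cKO animal 3. The log2 fold change was -0.29 ± 0.10 (SE, adjusted p = 0.0486, edgeR's quasi-likelihood test), and 8 of the 10 fits without 1 animal lost the call. The highest adjusted p was 0.126, without WT animal 4, and it was 0.112 without WT animal 5.

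E2f5, a repressor that can act with RBL2 in resting cells, showed nearly equal levels. It was at 14.3, 14.5, 13.1, 16.7 and 17.4 CPM in WT and at 16.5, 14.9, 16.5, 12.5 and 14.6 CPM in cKO, and the ranges overlapped. The log2 fold change of -0.018 ± 0.10 (SE) was not called (adjusted p = 0.913, edgeR's quasi-likelihood test). Its sign turned without WT animal 4 (0.019), WT animal 5 (0.053) or cKO animal 4 (0.041). E2f5 overlaps 1810022K09Rik on the other strand, which held 675 to 929 counts per library against 369 to 499 for E2f5.

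The atypical factors E2f7 and E2f8 repress the targets that E2f1 activates late in S phase, E2f1 among them. E2f7 was at 19.3, 17.7, 20.1, 22.2 and 15.2 CPM in WT and at 13.2, 15.8, 15.5, 14.03 and 11.8 CPM in cKO. Only WT animal 5 reached into the cKO range. E2f7 fell by 0.42 ± 0.11 (SE) on the log2 scale (adjusted p = 0.0157, edgeR's quasi-likelihood test) and was called in each fit without 1 animal (adjusted p up to 0.0417). E2f8 was at 87.0, 78.6, 92.5, 85.1 and 71.3 CPM in WT and at 66.5, 77.1, 76.2, 63.0 and 69.7 CPM in cKO. WT animal 5 was again inside the cKO range. E2f8 gave -0.23 ± 0.083 (SE) and lay at the edge of the threshold in edgeR's quasi-likelihood test (adjusted p = 0.0515). It passed in DESeq2 (adjusted p = 0.0452) and without WT animal 2, WT animal 5 or cKO animal 2 (0.0497, 0.024 and 0.0452). E2f8 shares 339 bases with the gene Gm2788 on the other strand, which held 17 to 50 counts per library against at least 1842 for E2f8.

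Rb1, the tumour suppressor that binds the activator E2Fs, rose where the called E2F genes fell. It was at 37.4, 36.6, 38.7, 30.5 and 23.5 CPM in WT and at 52.8, 58.4, 54.8, 41.9 and 49.0 CPM in cKO. The lowest cKO animal stayed above the highest WT animal. The log2 fold change was 0.62 ± 0.13 (SE), a rise of 54.0% (adjusted p = 0.00593, edgeR's quasi-likelihood test). It was called in each fit without 1 animal, with log2 fold changes from 0.54 to 0.69 and adjusted p up to 0.0171.

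The size of the Rb1 rise depended on how transcript length was treated. The effective length that the authors' quantification gave Rb1 ran from 2725 to 3814 bases in WT and from 3164 to 3775 bases in cKO libraries, while that of E2f1 ran from 2634 to 2640 bases. Rb1 TPM, which divides by this length, was 17.5, 14.6, 16.8, 11.1 and 10.2 in WT and 18.55, 18.03, 18.55, 15.05 and 18.25 in cKO, so the genotypes overlapped through cKO animal 4. With the length as an offset the log2 fold change was 0.45 (adjusted p = 0.0421, edgeR's quasi-likelihood test), and limma on log2(TPM + 0.1) gave 0.36 (adjusted p = 0.087). On the other strand, Lpar6 lies inside the Rb1 locus with 260 to 390 counts per library, and Rcbtb2 overlaps its 3′ end with 423 to 733. The strand setting of the counting is not given in the sources used here. Rcbtb2 was lower in cKO (-0.29, adjusted p = 0.0241), and Lpar6 gave 0.068 (adjusted p = 0.657, edgeR's quasi-likelihood test).

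The other pocket genes were split. Rbl1, which is itself turned on in dividing cells, was at 60.1, 48.3, 59.2, 58.2 and 42.8 CPM in WT and at 46.2, 51.3, 53.0, 45.4 and 43.4 CPM in cKO. WT animal 2 lay inside the cKO range and WT animal 5 just below it, and the difference of -0.17 ± 0.10 (SE) was not called (adjusted p = 0.239, edgeR's quasi-likelihood test). Rbl2, the pocket protein of resting cells, was at 44.8, 35.5, 43.7, 32.0 and 31.9 CPM in WT and at 48.1, 48.3, 44.5, 50.5 and 51.4 CPM in cKO. Only WT animal 1 lay above the lowest cKO animal. Rbl2 rose by 0.37 ± 0.10 (SE, adjusted p = 0.0195, edgeR's quasi-likelihood test), and the call was lost without cKO animal 5 (adjusted p = 0.0518), with library sizes alone (0.0991) and in limma on log2(TPM + 0.1) (0.161). Rbl2 shares 346 bases with Aktip, a gene on the other strand with 1061 to 1369 counts per library. Aktip was itself higher in cKO (0.22, adjusted p = 0.0152, edgeR's quasi-likelihood test). The part of this overlap in the Rbl2 counts was not tested.

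**Figure D2:**
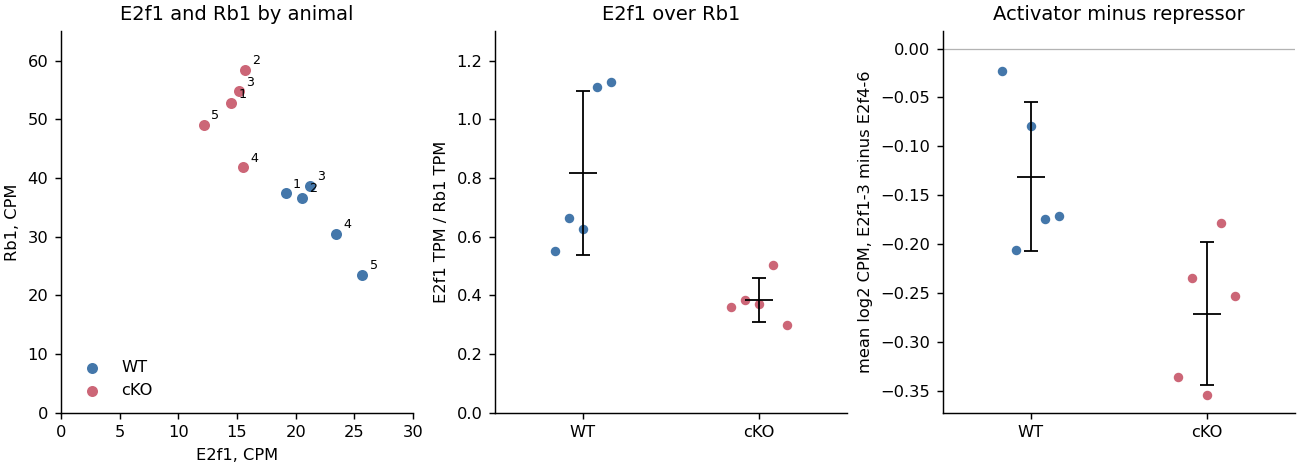
Left, E2f1 against Rb1 in CPM, with each point 1 animal and its replicate number; middle, E2f1 TPM over Rb1 TPM; right, mean log2 CPM of E2f1 to E2f3 minus that of E2f4 to E2f6 (bars: mean and SD over 5 animals). The ratio in cKO (0.298 to 0.504) lies below WT (0.552 to 1.13), while the activator minus repressor values of the genotypes overlap.

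The ratio of E2f1 to Rb1 kept the genotypes apart. E2f1 TPM over Rb1 TPM was 0.552, 0.664, 0.627, 1.11 and 1.13 in WT and 0.361, 0.384, 0.369, 0.504 and 0.298 in cKO. Its mean went from 0.816 ± 0.279 (SD, n = 5) to 0.383 ± 0.0750, without overlap. WT animals 4 and 5 had the highest ratios, and the plot of E2f1 against Rb1 shows them with the most E2f1 and the least Rb1. The ratio pairs members that already lay apart in opposite directions in CPM, so its gap between genotypes follows largely from that. Rbl1 TPM over Rb1 TPM also kept the genotypes apart, at 0.997 to 1.85 in WT and 0.656 to 0.921 in cKO. Neither Rbl1 TPM nor Rb1 TPM alone did so. These ratios are built from members and are given without a test.

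Activators and repressors as classes did not part in the same way. The mean log2 CPM of E2f1, E2f2 and E2f3 less that of E2f4, E2f5 and E2f6 was -0.023, -0.21, -0.079, -0.17 and -0.17 in WT and -0.34, -0.24, -0.35, -0.18 and -0.25 in cKO. The cKO mean was lower by 0.14 on the log2 scale (-0.27 ± 0.073 against -0.13 ± 0.077, SD, n = 5), and WT animal 2 lay below cKO animal 4. All 3 activators and all 3 repressors had negative log2 fold changes under each scaling tried. Activators made up 20.8% ± 0.763 of all E2F TPM in WT and 20.1% ± 0.447 in cKO (SD, n = 5), with overlap. Atypical factors made up 22.5% ± 3.64 and 22.4% ± 1.21.

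Summed over E2f1 to E2f8, E2F TPM was 153, 150.2, 161, 189 and 161 in WT and 131.0, 122, 131, 124 and 127 in cKO. Every cKO sum was below every WT sum. TPM shifted the median of all genes tested by -0.13 on the log2 scale, library sizes alone by -0.16, and with TMM it stood at -0.031. With library sizes alone 27.7% of called genes were higher in cKO, and in limma on log2(TPM + 0.1) 33.8%, against 55.1% with TMM. Of 14719 genes tested, these settings called 5574, 4141 and 4167. The members called were 7, 6 and 5 in the same order. The TPM sum of Rb1, Rbl1 and Rbl2 ran from 32.3 to 51.8 in WT and from 43.5 to 46.1 in cKO and overlapped.

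Ordered by TPM, E2f4 led in both genotypes, at 58.6 ± 6.96 TPM in WT and 45.6 ± 2.07 TPM in cKO (SD, n = 5), apart from the next gene. E2f8 came next, at 31.3 ± 5.01 and 24.96 ± 1.09 TPM. E2f7 was last, at 5.29 ± 1.25 and 3.41 ± 0.338 TPM. In WT every pair of neighbours below E2f4 overlapped in range, so no pair of neighbours from E2f8 down is resolved there. Rb1 held rank 6 in WT (14.1 ± 3.31 TPM) and rank 3 in cKO (17.7 ± 1.49 TPM), where its range overlapped with E2f6, the next gene. E2f1 held rank 8 in WT (10.8 ± 1.148 TPM) and rank 9 in cKO (6.70 ± 0.784 TPM), below E2f3.

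**Figure D3:**
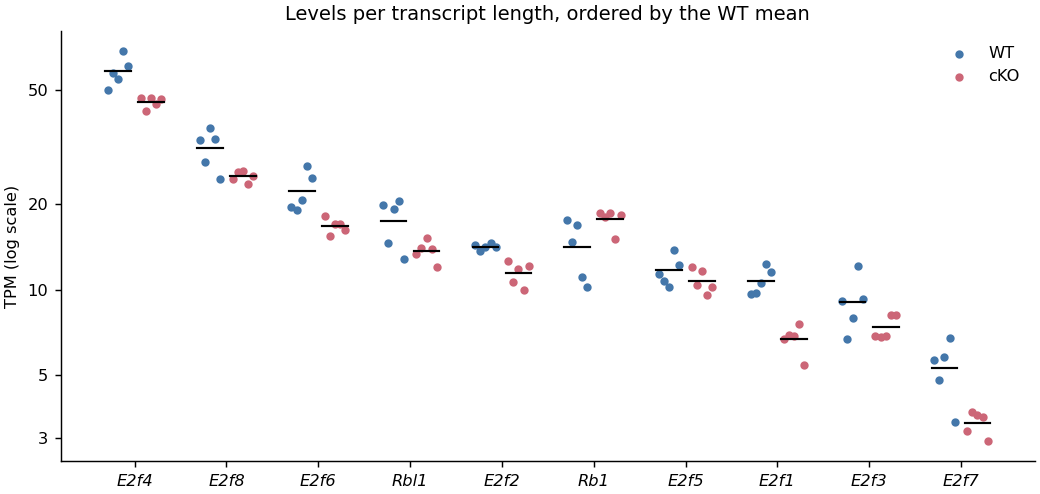
TPM of each gene (log axis) in WT and cKO animals, ordered by the WT mean; each point is 1 animal and the line is the mean of 5. E2f4 stands apart at the top (42.3 to 68.9 TPM over both genotypes), E2f7 is lowest, and Rb1 alone among the 10 genes has a higher cKO mean.

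Among partners, Tfdp1, the main DP protein that E2f1 to E2f6 need to bind DNA, was lower. It went from 191 ± 21.1 to 149.7 ± 8.72 CPM (SD, n = 5) without overlap, a log2 fold change of -0.35 ± 0.080 (SE, adjusted p = 0.00799, edgeR's quasi-likelihood test). Tfdp2, the second DP protein, stood at 83.7 ± 12.4 and 85.6 ± 0.621 CPM and was not called (0.033 ± 0.090, adjusted p = 0.813, edgeR's quasi-likelihood test). Tfdp1 also holds E2F letters before its start, as shown above.

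The MuvB core joins E2f4 and the pocket proteins Rbl1 or Rbl2 in the DREAM repressor complex, or MYBL2 and FOXM1 in activating forms. Of 8 genes, 3 were lower and none higher, a share called of 37.5% beside 28.3% of all genes tested. Mybl2 fell from 39.2 ± 4.41 to 26.3 ± 3.62 CPM (SD, n = 5), a log2 fold change of -0.57 ± 0.10 (SE, adjusted p = 0.00282, edgeR's quasi-likelihood test). The histone chaperone subunit Rbbp4 gave -0.30 ± 0.067 (adjusted p = 0.00727) and Foxm1 gave -0.28 ± 0.096 (adjusted p = 0.0466, edgeR's quasi-likelihood test). Foxm1 was called in 2 of the 10 fits without 1 animal. The core subunits Lin9 (-0.19), Lin54 (-0.15), Lin37 (0.014) and Lin52 (0.067), and the kinase Dyrk1a (0.089), which assembles DREAM, were not called. The signs of Lin37, Lin52, Dyrk1a and Tfdp2 turned with library sizes alone.

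In the Polycomb complex PRC1.6, which E2f6 and its partner MGA bring to germline genes, 2 of 10 genes were lower and 1 was higher, and the share called (30%) was near that of all genes tested (28.3%). L3mbtl2 (-0.37 ± 0.091, adjusted p = 0.0113) and Wdr5 (-0.35 ± 0.078, adjusted p = 0.00725) fell, and Max, a dimer partner of MGA and of MYC, rose (0.46 ± 0.11, SE, adjusted p = 0.00826, edgeR's quasi-likelihood test). Mga itself was at -0.11 (adjusted p = 0.529). Of 14 corepressors that pocket proteins bring to promoters, 4 were lower and none higher, a share called (28.6%) also near that of all genes. They were the deacetylases Hdac1 (-0.21) and Hdac2 (-0.20), the histone methyltransferase Suv39h1 (-0.28) and the histone-binding protein Rbbp7 (-0.34). Without WT animals 3 and 4, Hdac1 and Hdac2 lost the call (adjusted p = 0.0886 and 0.149), and they were called in 6 and 4 of the 10 fits without 1 animal. Neither was called without the filter on low counts (adjusted p = 0.0792 and 0.104, edgeR's quasi-likelihood test).

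**Figure D4:**
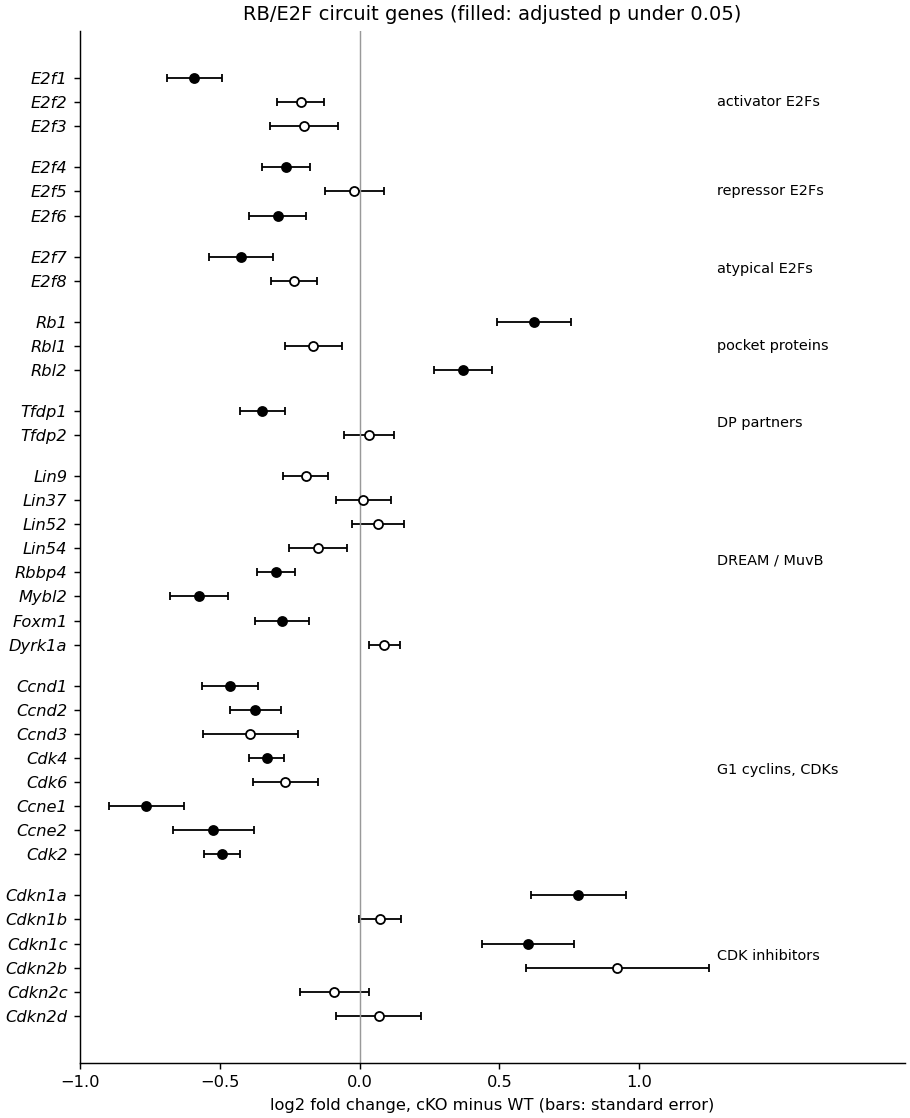
Log2 fold change of cKO against WT for each gene of the RB/E2F circuit that was tested, grouped by role; the bars are the standard error and filled points had an adjusted p under 0.05 in edgeR's quasi-likelihood test. Rb1 (0.62) and Rbl2 (0.37) lie right of 0 with Cdkn1a (0.78) and Cdkn1c (0.60), while Ccne1 (-0.76), E2f1 (-0.59) and Mybl2 (-0.57) lie to the left.

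Upstream of the pocket proteins, most G1 cyclins and their kinases were lower, and 2 of 6 kinase inhibitors tested were higher. All 8 genes of the cyclin and kinase list had negative log2 fold changes, 6 of them called, with a median of -0.43 beside -0.031 over all genes tested. The share called was 75%, beside 28.3% of all genes tested. Cyclin E1 (Ccne1), itself an E2F target, fell from 23.5 ± 3.34 to 13.9 ± 2.57 CPM (SD, n = 5), a log2 fold change of -0.76 ± 0.14 (SE, adjusted p = 0.00241, edgeR's quasi-likelihood test). Its partner kinase Cdk2 fell by 0.49 ± 0.065 (adjusted p = 0.000736) and cyclin E2 (Ccne2) by 0.52 ± 0.15 (adjusted p = 0.019, edgeR's quasi-likelihood test). Ccnd1, Ccnd2 and Cdk4 were lower too, while Ccnd3 (-0.39) and Cdk6 (-0.27) were not called.

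Of 6 CDK inhibitors tested, 2 were higher. The share called (33.3%) was near that of all genes tested (28.3%, with 15.6% called higher). In limma on log2(TPM + 0.1), 3 of the 6 had negative and 3 positive log2 fold changes. Cdkn1a (p21) rose from 40.4 ± 10.8 to 69.4 ± 9.94 CPM (SD, n = 5), a log2 fold change of 0.78 ± 0.17 (SE, adjusted p = 0.00741, edgeR's quasi-likelihood test). Cdkn1c (p57) rose by 0.60 ± 0.16 from a low level of 3.27 CPM (adjusted p = 0.0177, edgeR's quasi-likelihood test). Both were called in each of the 10 fits without 1 animal. In the 12 other alternatives Cdkn1a was called throughout, but Cdkn1c in only 7. Cdkn2b gave 0.92 ± 0.33 and was not called (adjusted p = 0.0601).

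The G1/S genes that E2F factors are known to switch on were lower almost throughout. All 52 genes of the list had negative log2 fold changes, 46 of them called, with a median of -0.43. The share called was 88.5%, beside 28.3% of all genes tested. The list included Ccne1 and Ccne2, named above. Cdc6, which loads the replicative helicase, fell from 35.7 ± 6.54 to 21.7 ± 1.84 CPM (SD, n = 5), or by 0.72 ± 0.12 on the log2 scale (SE, adjusted p = 0.0016, edgeR's quasi-likelihood test). Mcm5, a subunit of that helicase, fell by 0.65 ± 0.090 (adjusted p = 0.000848, edgeR's quasi-likelihood test). The 6 genes not called included Gmnn, Gins4, Cdc25a, Ezh2 and Slbp, with -0.22 (Ezh2) to -0.028 (Cdc25a). The E2F letters stood in 21 of the 46 promoters given for these genes (45.7%, beside 2.37% of all promoters). The genes were listed as known E2F targets, so this share is tied to that choice and is no separate result.

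Mitotic genes, which DREAM and the MuvB activators control through the CHR element, showed smaller differences. All 25 G2/M genes had negative log2 fold changes, 5 of them called, with a median of -0.23. The share called was 20%, where 28.3% of all genes tested were called, 12.7% as lower. Aurkb (-0.39 ± 0.11, adjusted p = 0.0167), Cdk1 (-0.38 ± 0.099, adjusted p = 0.0145) and Bub1b (-0.35 ± 0.098, SE, adjusted p = 0.0197, edgeR's quasi-likelihood test) act in chromosome alignment, mitotic entry and the spindle checkpoint. The CHR letters TTTGAA stood in 16 of 21 promoters of the list (76.2%) beside 17.9% of all promoters. The genes were listed as known genes of the MuvB complexes, so this share too is no separate result. The Cdk1 promoter is shown because it holds both kinds of letters, the E2F letters in the first stretch and the CHR letters in the second.
Cdk1, E2F letters (chr10:69353021-69353058, minus strand): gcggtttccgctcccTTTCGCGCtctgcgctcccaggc
Cdk1, CHR letters (chr10:69352913-69352998, minus strand): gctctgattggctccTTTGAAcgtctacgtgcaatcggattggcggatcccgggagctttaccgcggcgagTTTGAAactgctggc

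The difference between the G1/S and the G2/M lists was not tested, and the lists differ in size. The count of G2/M calls rested on the scaling and on single animals. It was 16 of 25 under library sizes alone, 13 in limma on log2(TPM + 0.1) and 2 without cKO animal 5. Genes called in all were 5574, 4141 and 3054 in these settings, beside 4167 in the main fit. Of 7 listed and tested genes through which E2f1 can act on cell death, 3 were higher and none lower, with a median of 0.24. The share called was 42.9%, beside 28.3% of all genes tested. One of the called genes was the BH3-only gene Pmaip1 (0.80 ± 0.18, SE, adjusted p = 0.00769, edgeR's quasi-likelihood test). Apaf1 (0.21), Casp8 (0.050), Bbc3 (0.15) and Bcl2l11 (0.24) were not called. The pro-apoptotic gene Siva1, named below for its likeness to E2f1, was not in this list. It was lower (-0.55 ± 0.12, SE, adjusted p = 0.0055, edgeR's quasi-likelihood test).

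**Figure D5:**
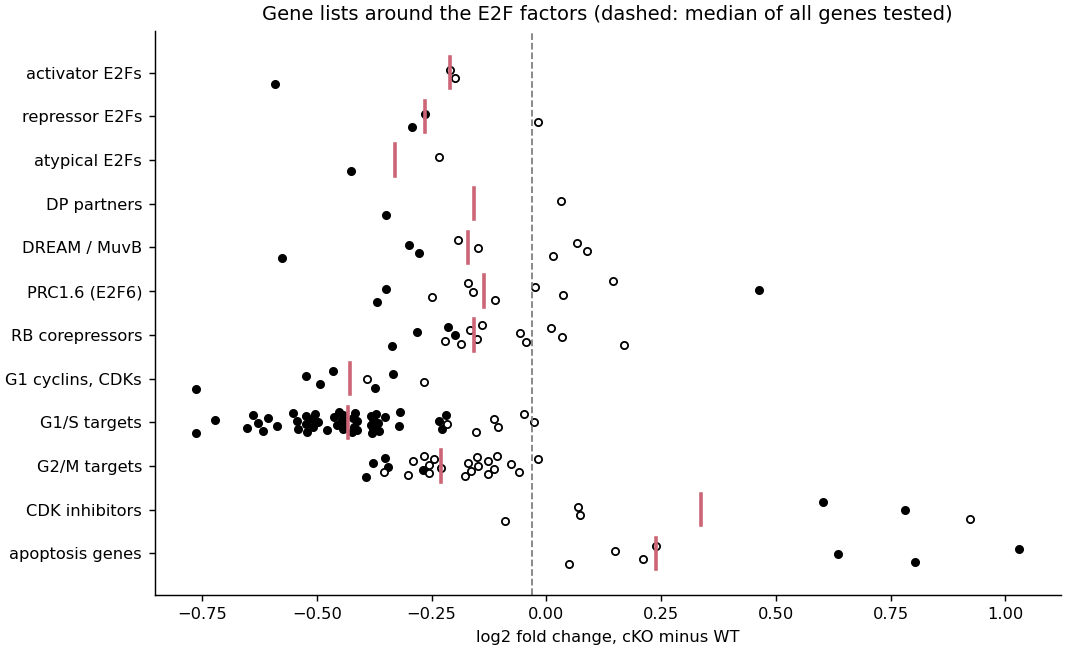
Log2 fold change of cKO against WT for each tested gene of the E2F classes and the lists around them; filled points had an adjusted p under 0.05, the red line is the median of the list and the dashed line is the median of all genes tested (-0.031). The G1/S targets centre on -0.43 and the G2/M targets on -0.23, and the CDK inhibitors and apoptosis genes lie mostly to the right.

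Over the 10 libraries, the 5 genes with profiles nearest to E2f1 were Siva1, Cd9, Ifitm2, Krt7 and Ung. Likeness was the Euclidean distance between log2 CPM profiles centred on each gene's mean, among 10460 genes with a mean of at least 5 CPM. The distances were 0.26 (Siva1), 0.26 (Cd9), 0.27 (Ifitm2), 0.28 (Krt7) and 0.28 (Ung), where the median gene stood at 1.09. The distance includes the gap between genotypes, so genes near E2f1 share its fall by choice. All 5 were called lower, with log2 fold changes from -0.66 (Cd9) to -0.46 (Ifitm2), which follows from this choice and is no separate result. Siva1 encodes a pro-apoptotic protein and Ung the uracil glycosylase of base repair, which is also in the G1/S list.

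One library of each genotype came close in its villus marker sum, WT animal 2 at 6701 and cKO animal 3 at 6873 TPM. Side by side, E2f1 was 20.5 and 15.2 CPM, Rb1 was 36.6 and 54.8 CPM, and Rbl2 was 35.5 and 44.5 CPM in these animals. E2f6 was 33.1 and 32.7 CPM and E2f8 was 78.6 and 76.2 CPM. E2f2 (50.8 and 46.0 CPM), E2f4 (85.3 and 73.9 CPM) and E2f7 (17.7 and 15.5 CPM) were also lower in the cKO animal. E2f3 (25.5 and 27.04 CPM), E2f5 (14.5 and 16.5 CPM) and Rbl1 (48.3 and 53.0 CPM) were higher in it. With 1 library each, these values have no replicate check. Leaving out WT animals 3 and 4, which had the lowest villus sums, kept the calls of E2f1 (-0.58, adjusted p = 0.0141) and Rb1 (0.66, adjusted p = 0.0254) in edgeR's quasi-likelihood test. E2f7 then gave -0.31 (adjusted p = 0.116), E2f4 -0.25 (0.114) and E2f6 -0.25 (0.149), none of them called. Of the lists, 30 of the 52 G1/S genes and 1 of the 25 G2/M genes were called. Calls were fewer among all genes too, 2142 of 15072 tested, beside 4167 of 14719 in the main fit. The WT animals that remained, at 3289 to 6701 TPM, still had lower villus sums than every cKO animal (6873 to 13809 TPM). Genotype and villus sum are therefore not separated in this setting, and the part of each was not tested.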

How the data were processed

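RNA-seq of jejunal crypts was processed by the authors with nf-core/rnaseq (STAR and RSEM) on Ensembl gene models for GRCm38. Each deposited library holds expected counts, TPM, FPKM (not used here) and an effective length in bases per gene, without a filter. RSEM divides reads that match several genes, and it estimates the effective length separately in each library. Of 54838 gene identifiers, 54809 took a symbol from GENCODE M21.

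The 10 members and all gene lists were chosen with earlier results of these data known. Genes named besides the members were Rbl2, Arid3a, all DP and MuvB genes, up to 3 called genes per direction and list with the largest changes (mean of at least 5 CPM), and the 5 nearest to E2f1. Further list genes and genes that overlap members were named after their values were seen.

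Rounded expected counts went into edgeR 4.0.16 (R 4.3.3): filterByExpr (minimum count 10, minimum total 15), TMM, robust quasi-likelihood test of genotype, and adjustment by Benjamini-Hochberg (calls under 0.05). The authors used DESeq2, here an alternative (1.42.0), as were limma 3.58.1 on log2 TPM, other scalings, filters and lengths, a replicate block and leaving out animals. Members had 313 to 2749 counts per library. The fit was tested on simulated data. Replicates are separate animals. Proteins were not analysed here, and some genes of the lists are counted but not reported by name.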

Additional observations from a re-analysis of the deposited data

How the results depend on the processing

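Fits without 1 animal called 3 to 5 members, 2 to 6 corepressors, 2 to 7 G2/M genes, 37 to 45 G1/S genes and 3007 to 4684 genes in all. Members called were 3 without a filter on low counts and 2 without WT animals 3 and 4, a setting chosen after seeing the data, which called 2142 genes in all, 30 G1/S genes, 1 G2/M gene, 2 corepressors and 1 CDK inhibitor. Library sizes alone called 6 PRC1.6 genes, 10 corepressors and 16 G2/M genes, with 5574 genes called in all. No filter called 2 corepressors and 3 G2/M genes, with 3397 in all. The effective length offset called 1 CDK inhibitor, and limma on TPM called 13 G2/M genes with either pseudocount. The animals share only a replicate number: the correlations of their deviations were -0.157, -0.0361, 0.131, -0.141 and -0.152, and 0 libraries correlated best with their own number. With the replicate block, 3 members, 2 corepressors and 10 G2/M genes were called, with 3048 genes called in all. Signs turned, with no call, for E2f5 (0.019, 0.053 and 0.041 without WT animal 4, WT animal 5 and cKO animal 4, in a range from -0.068), Tfdp2 (-0.10 by library sizes alone, -0.015 without WT animal 5 in a range up to 0.097, -0.029 and -0.028 on TPM), Lin37 (-0.11 by library sizes alone, -0.050 without WT animal 4, -0.024 without cKO animal 5, in a range up to 0.066, -0.088 without WT animals 3 and 4, -0.0084 and -0.0078 on TPM), Lin52 (-0.061 by library sizes alone) and Dyrk1a (-0.042 by library sizes alone, -0.00209 with the length offset, -0.11 and -0.10 on TPM). The cause of these changes was not tested. Activator minus repressor differences kept their sign in the alternatives run (-0.16 to -0.11). Each member had at least 313 counts in every library.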

Other observations

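WT animal 5 stood at an end of the WT range for 9 of the 10 genes. It had the highest level of E2f1, E2f2, E2f4, E2f5 and E2f6 and the lowest level of E2f7, E2f8, Rb1 and Rbl1, and E2f3 was the exception. Among cKO animals, animal 4 was the lowest for 6 of the 10 genes and the highest for none. For the 3680 longest genes tested (effective length of at least 3419 bases) less the 3680 shortest, median log2 CPM deviated by -0.26 in WT animal 2 and -0.23 in WT animal 5, by 0.12 to 0.21 in the other WT animals and by -0.047 to 0.089 in cKO animals. The median log2 fold change was -0.030 for the long and -0.024 for the short genes. The part of this in the levels of single members was not tested.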
